A study of Homo sapiens with 28 samples.

Results

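The genes described here are the cytosolic DNA sensors and the STING pathway in human embryonal carcinoma (EC) and embryonic stem (ES) cell lines. The 9 genes IFI16, CGAS, AIM2, MNDA, PYHIN1, STING1, TREX1, TBK1 and IRF3 were taken by symbol from the array's annotation. CGAS was read also under C6orf150 and STING1 under TMEM173. On the array 14220 genes had a gene-level transcript cluster of their own. Of these 9 genes, 8 had 1 transcript cluster annotated to that gene alone. TREX1 had none, and was read from a cluster shared with its neighbour ATRIP. IRF3 had, beside its own cluster, another that was shared with BCL2L12. At exon level 111 probesets of 287329 belonged to 1 of the 8 genes alone, and 33 more were shared by TREX1 and ATRIP.

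The assay was the Affymetrix Human Exon 1.0 ST array, which carries several short probes for each exon, on total RNA of cells sorted for the surface antigen SSEA3. EC lines come from germ cell tumours and ES lines from embryos, and the study set them side by side to find transcripts particular to the malignant lines. The EC group on plastic held the lines NCCIT, 2102Ep, 833KE, TERA1 and NTERA2, in high-glucose DMEM with fetal calf serum at 10% (n = 5). The EC group on feeders held NTERA2, 2102Ep and 833KE, cultured over mouse embryo fibroblasts that mitomycin C had inactivated. Its medium was knock-out DMEM with FGF at 4 ng/ml and serum replacement at 10% (n = 3). The ES lines H14, Shef5, Shef 6, Shef3, H9 and Shef7 were grown on the same kind of feeders in that medium (n = 6). Each array was 1 line in 1 growth condition, so the spread within a group is a spread between lines, and nothing in the labels gives repeat cultures of a line. EC on plastic differed from ES in cell type and growth condition together, and these cannot be told apart in that comparison.

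Cyclic GMP-AMP synthase (cGAS, the product of CGAS) binds double-stranded DNA in the cytosol and makes a cyclic dinucleotide that binds STING on the endoplasmic reticulum. STING then recruits the kinase TBK1, which phosphorylates the transcription factor IRF3, and IRF3 turns on type I interferon genes. IFI16, AIM2, MNDA and PYHIN1 form the human PYHIN family, which pairs a pyrin domain with a DNA-binding HIN domain, and TREX1 is an exonuclease that removes cytosolic DNA. Human pluripotent cells are known for a weak interferon response to foreign nucleic acid.

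All values below are deposited log2 values, where a difference of 1 is a doubling. The array medians lay between 6.19 and 6.39 at gene level. A feature was called where limma's p-value, adjusted by Benjamini-Hochberg over all 22011 clusters or all 287329 probesets, was below 0.05. Of all clusters, 4.6% were called in EC on plastic against ES, 3.26% as higher (718) and 1.34% as lower (294), with 578 higher and 439 lower after quantile normalisation. For EC on feeders against ES 2.29% were called, 1.56% as higher and 0.731% as lower. For EC on feeders against EC on plastic 0% were called, with 3276 clusters at an unadjusted p below 0.05. Mean log2 levels of 6 pluripotent cell markers (with DPPA4, LIN28A and SALL4 among them) were 10.06 to 11.52 in EC on plastic, 10.30 to 10.99 in EC on feeders and 9.82 to 11.17 in ES. None was called, the nearest on plastic being L1TD1 (1.005, adjusted p = 0.0992) and DPPA4 (0.44, 0.382). POU5F1, NANOG and SOX2, read from their brightest probesets with no test, were at 7.25 to 10.1, 9.41 to 12.8 and 10.5 to 11.9 over the 14 arrays. NANOG was 11.58 to 12.85 in EC on plastic, 11.23 to 12.43 in EC on feeders and 9.41 to 11.57 in ES. POU5F1 and SOX2 overlapped ES in both EC groups.

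The sensors IFI16 and CGAS were the members that stood apart between EC and ES lines. The gene set was chosen by their high measured level in EC on plastic against ES, and the comparison of EC on feeders uses the same ES arrays, so both differences are given as a description with no test. IFI16, which binds DNA in the nucleus and the cytosol, had log2 levels of 10.34 in NCCIT, 9.35 in 2102Ep, 7.09 in 833KE, 7.63 in TERA1 and 7.73 in NTERA2 on plastic. On feeders it had 8.24 in NTERA2, 7.998 in 2102Ep and 6.45 in 833KE, and in ES lines the lowest, median and highest levels were 5.12, 5.33 and 5.82. All 8 EC arrays were above all 6 ES arrays, with NCCIT highest and 833KE lowest of the EC lines on plastic.

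The mean level of IFI16 was 8.43 ± 1.36 in EC on plastic (SD, n = 5), 7.56 ± 0.97 in EC on feeders (n = 3) and 5.38 ± 0.27 in ES (n = 6). The differences from ES were 3.05 on plastic, or 8.28-fold, and 2.18 on feeders, or 4.55-fold. The spread among EC lines was wide: single EC arrays were between 2.10-fold (833KE on feeders) and 31.2-fold (NCCIT on plastic) above the ES mean. The 2 EC groups overlapped each other, and ES stood below both. In bulk samples, fewer cells that express a gene and less of its RNA per cell cannot be told apart.

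CGAS, the enzyme that makes the cyclic dinucleotide, had log2 levels of 5.34 in NCCIT, 7.72 in 2102Ep, 7.84 in 833KE, 8.11 in TERA1 and 7.43 in NTERA2 on plastic. On feeders it had 7.95 in NTERA2, 7.28 in 2102Ep and 8.07 in 833KE, and in ES lines the lowest, median and highest levels were 3.47, 4.49 and 5.06. All 8 EC arrays were again above all ES arrays, but NCCIT lay just above Shef5, the highest ES line, while the other 7 EC arrays lay close together. Over all clusters, 2.85% had every EC array on plastic above every ES array, 5.78% had every EC array on feeders above them and 1.4% all 8 EC arrays, shares that cannot be read against these 2 genes, which were chosen for that level.

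The mean level of CGAS was 7.29 ± 1.12 in EC on plastic (SD, n = 5), 7.77 ± 0.43 in EC on feeders (n = 3) and 4.37 ± 0.55 in ES (n = 6). The differences from ES were 2.92 on plastic, or 7.56-fold, and 3.40 on feeders, or 10.5-fold. NCCIT was 1.96-fold above the ES mean, and the other EC arrays were between 7.52-fold (2102Ep on feeders) and 13.4-fold (TERA1) above it. NCCIT thus held the highest IFI16 and the lowest CGAS of the EC arrays. Across the 14 arrays, which include 3 lines in 2 conditions and separate into EC and ES, the levels of IFI16 and CGAS had a Pearson r of 0.59.

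**Figure D1:**
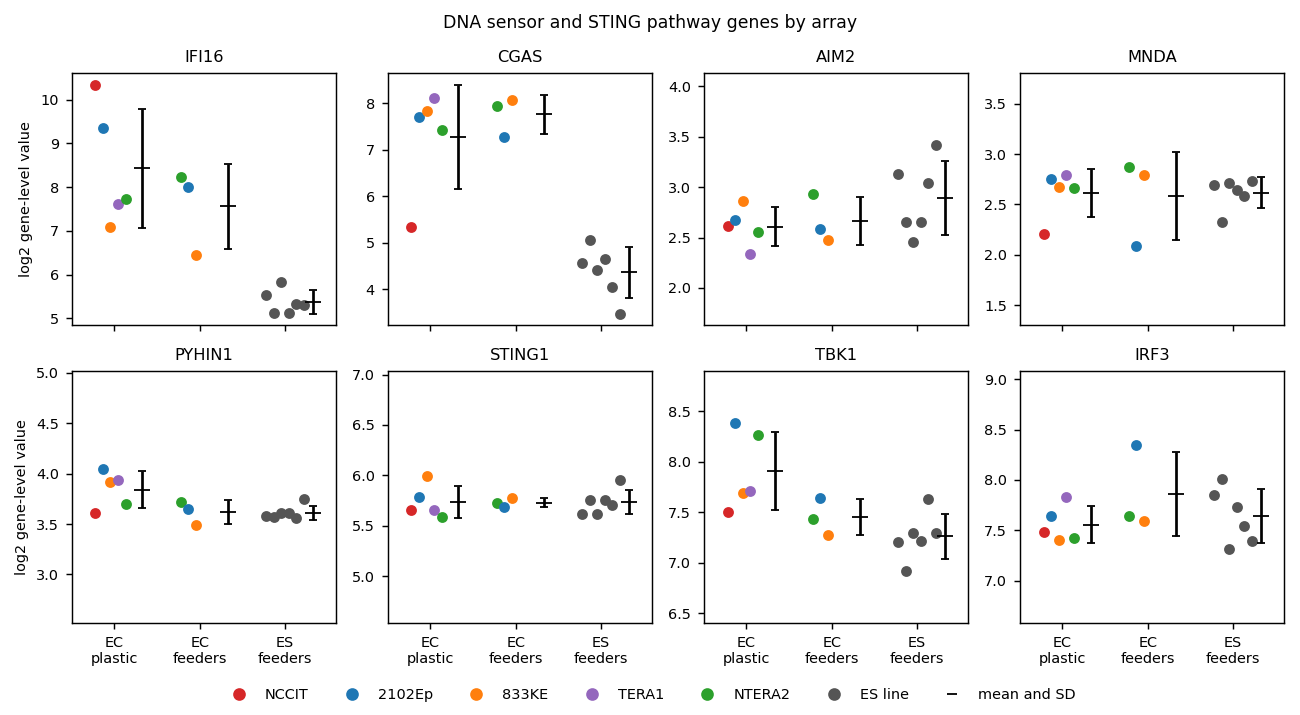
Log2 gene-level values of the 8 members with a cluster of their own, a panel a gene, for EC on plastic (n = 5), EC on feeders (n = 3) and ES on feeders (n = 6); points are arrays, coloured by EC line, and bars are mean and SD. IFI16 and CGAS have every EC array above every ES array, with NCCIT at 10.34 and 5.34, and the other 6 genes overlap between EC and ES.

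The 3 EC lines grown both ways show how IFI16 and CGAS varied with growth condition. Their plastic arrays are among those whose high levels chose the genes, so these differences too are given as a description with no test. IFI16 on feeders minus plastic was 0.51 in NTERA2, -1.36 in 2102Ep and -0.64 in 833KE, with a mean of -0.49. Without 2102Ep the mean was -0.064, and without NTERA2 -0.998. CGAS on feeders minus plastic was 0.52 in NTERA2, -0.44 in 2102Ep and 0.24 in 833KE, with a mean of 0.11. Neither gene moved the same way in all 3 lines. On feeders, NTERA2 and 2102Ep had array codes up to 13 in the labels and 833KE a code from 17, as had every plastic array. The part of these codes in the values was not tested for feeders against plastic. With codes from 17 only, which leaves 833KE as the EC line on feeders, IFI16 was 1.05 above ES, against 2.18 with all 3 lines.

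The 4 PYHIN genes lie side by side on chromosome 1 (GRCh38.p14, RefSeq gene spans), in the order MNDA (158831351 to 158849502), PYHIN1 (158931552 to 158990870), IFI16 (158999976 to 159055151) and AIM2 (159055051 to 159147132). The ends of IFI16 and AIM2 overlap. CGAS lies on chromosome 6 (73423711 to 73452297), STING1 on chromosome 5 (139475533 to 139482758), TREX1 on chromosome 3 (48465830 to 48467645), TBK1 on chromosome 12 (64452120 to 64502114) and IRF3 on chromosome 19 (49659572 to 49665857). RefSeq promoter windows (GRCh38.p14, 250 bases before to 50 after an annotated start) are printed for IFI16, the member with the widest range between EC lines, at chr1:159008741-159009040 and chr1:159009657-159009956, for PYHIN1 at chr1:158931302-158931601, because it holds the probeset that followed IFI16, and for TBK1 at chr12:64451870-64452169. All are on the plus strand, 5′ to 3′, with CpG dinucleotides in capitals. The windows show how CpG-poor these PYHIN starts are beside that of TBK1. Both IFI16 windows lie inside the span of that gene, so its outermost start is not among them.
IFI16 upstream window: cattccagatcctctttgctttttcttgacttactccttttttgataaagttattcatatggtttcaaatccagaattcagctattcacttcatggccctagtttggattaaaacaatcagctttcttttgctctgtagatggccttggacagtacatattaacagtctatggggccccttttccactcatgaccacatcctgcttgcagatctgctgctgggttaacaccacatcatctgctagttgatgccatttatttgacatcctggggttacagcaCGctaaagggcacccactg
IFI16 downstream window: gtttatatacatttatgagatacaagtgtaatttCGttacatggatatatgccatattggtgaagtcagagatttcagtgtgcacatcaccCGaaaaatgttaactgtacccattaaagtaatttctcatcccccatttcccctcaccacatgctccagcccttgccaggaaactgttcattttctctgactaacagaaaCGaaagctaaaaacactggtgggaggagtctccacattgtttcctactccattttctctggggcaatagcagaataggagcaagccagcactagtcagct
PYHIN1 window: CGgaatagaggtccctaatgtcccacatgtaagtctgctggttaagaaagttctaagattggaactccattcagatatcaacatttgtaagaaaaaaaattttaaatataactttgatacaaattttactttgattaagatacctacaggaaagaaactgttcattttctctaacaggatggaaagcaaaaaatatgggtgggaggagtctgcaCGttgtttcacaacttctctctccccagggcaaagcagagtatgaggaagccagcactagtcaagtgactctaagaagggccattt
TBK1 window: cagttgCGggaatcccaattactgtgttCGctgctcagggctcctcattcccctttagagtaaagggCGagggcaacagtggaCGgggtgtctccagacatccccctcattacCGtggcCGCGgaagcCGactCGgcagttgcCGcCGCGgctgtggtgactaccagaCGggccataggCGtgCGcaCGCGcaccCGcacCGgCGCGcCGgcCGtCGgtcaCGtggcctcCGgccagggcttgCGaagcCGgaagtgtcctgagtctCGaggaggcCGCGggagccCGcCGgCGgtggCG

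The IFI16 windows held 1 and 3 CpG, PYHIN1 2, and TBK1 35. The windows of AIM2 (2), MNDA (2) and TREX1 (3) were CpG-poor as well. The AIM2 window, too, lies inside the span of its gene. CGAS, STING1 and IRF3 had no window in the promoter set used, so their starts were not searched. Over all 35116 windows of this length the median was 14 CpG, with 1 at the 10th percentile and 37 at the 90th. GAAA followed after any 2 bases by a further GAAA, the core of an interferon-stimulated response element, was found on either strand in the AIM2 and MNDA windows and in no other member window, and in 3.57% of all windows. TTCNNNGAA, a gamma-activated site, was in none of the member windows and in 7.66% of all windows, and GGGCGG, a GC box, was in none and in 45.0% of all. In global alignment the IFI16 downstream window and the PYHIN1 window had 189 identical bases of 269 aligned, with a longest shared run of 19. The MNDA and PYHIN1 windows had 192. The same IFI16 window had 174 identical bases with MNDA, 163 with AIM2, 152 with TREX1 and 144 with TBK1.

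The higher levels of IFI16 and CGAS in EC lines were found over most of their probesets. Of 19 IFI16 probesets, all 19 had a higher mean in EC on plastic than in ES, by 0.36 to 4.46 (median 2.73), and 17 had a higher mean in EC on feeders (median 2.31). In 12 of 19 every EC array on plastic was above every ES array, in 13 every EC array on feeders was, and in 10 all 8 EC arrays were. Over all probesets 2.34% had every EC array on plastic above every ES array, 4.14% every EC array on feeders and 0.916% all 8. These shares cannot be read against IFI16 and CGAS, which were chosen for that level. The probesets of a gene measure the RNA that its cluster measures, so the counts are a description. NCCIT was the highest of the 5 lines on plastic in 16 IFI16 probesets and 2102Ep in the other 3, and 833KE was the lowest in 12.

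The brightest IFI16 probeset, 2362411, had log2 levels of 11.79 in NCCIT, 10.98 in 2102Ep, 8.69 in 833KE, 9.53 in TERA1 and 9.67 in NTERA2 on plastic. It had 9.46 in NTERA2, 9.28 in 2102Ep and 8.18 in 833KE on feeders, and 6.17 to 7.91 in ES lines. The order of the lines was close to that of the whole gene, and no EC array reached down to the ES range. Of the 19 probesets, 15 followed the gene's cluster with r of at least 0.9 over the 14 arrays.

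For CGAS, all 9 probesets had a higher mean in EC on plastic than in ES, by 1.29 to 3.64 (median 2.85), and all 9 in EC on feeders, by 0.86 to 4.53 (median 3.46). On plastic every EC array was above every ES array in 3 of 9 probesets, and on feeders in 8 of 9. NCCIT was the lowest of the 5 EC lines on plastic in 9 of 9 CGAS probesets. Without NCCIT, a comparison chosen after its values were seen, the count on plastic was 7 of 9 for CGAS and 12 of 19 for IFI16. The share of all probesets was 3.76%, which likewise cannot be read against genes chosen for their level. In probeset 2960883, NCCIT had 3.53, inside the ES range of 1.60 to 5.37, while the other 4 lines on plastic had 8.53 to 9.20 and the 3 arrays on feeders 8.16 to 9.13.

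**Figure D2:**
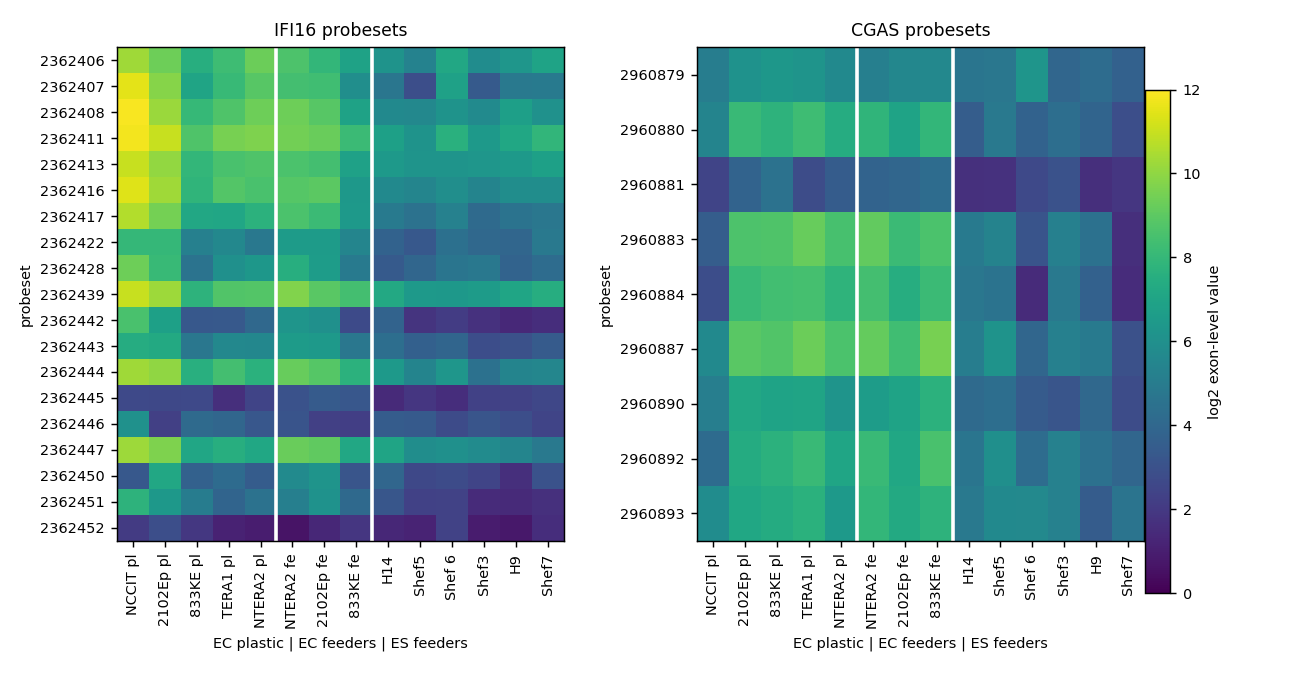
Log2 exon-level values of the 19 IFI16 and 9 CGAS probesets (rows) in each array (columns: EC on plastic, EC on feeders and ES on feeders, between white lines; pl, plastic; fe, feeders); lighter cells are higher. NCCIT is the highest plastic line in 16 IFI16 probesets and the lowest in all 9 CGAS probesets.

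The other PYHIN genes had dim clusters in every group. AIM2, which builds an inflammasome on DNA, had log2 levels of 2.61 in NCCIT, 2.68 in 2102Ep, 2.87 in 833KE, 2.34 in TERA1 and 2.56 in NTERA2 on plastic, 2.48 to 2.93 on feeders, and 2.46 to 3.42 in ES lines. MNDA, a nuclear protein of myeloid cells, ranged from 2.20 to 2.79 in EC on plastic, from 2.08 to 2.87 in EC on feeders and from 2.33 to 2.74 in ES. AIM2 lay between percentiles 6.07 and 14.02 of all clusters over the 14 arrays, and MNDA between 4.45 and 9.95. The groups overlapped for both genes, with no array clearly brighter than the rest.

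AIM2 differed from ES by -0.28 on plastic (adjusted p = 0.444) and -0.23 on feeders (0.675), and MNDA by -0.0024 (0.996) and -0.034 (0.955), all by limma. For both genes no probeset was called in any of the 3 comparisons. Blood cell markers, which would mark cells in which MNDA and PYHIN1 are normally found, were also low: PTPRC was at 1.86 to 2.02 in EC on plastic, 1.94 to 1.999 in EC on feeders and 1.93 to 2.07 in ES. Of 8 measured blood cell markers none was called (on plastic CD3E 0.26, adjusted p = 0.422, and FCER1G 0.29, 0.514), and their mean log2 level was 3.91 to 4.11 in EC on plastic, 3.92 to 4.10 in EC on feeders and 3.73 to 4.13 in ES.

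PYHIN1, an interferon-inducible nuclear protein, had gene-level values of 3.61 in NCCIT, 4.05 in 2102Ep, 3.92 in 833KE, 3.93 in TERA1 and 3.70 in NTERA2 on plastic. It had 3.72 in NTERA2, 3.65 in 2102Ep and 3.49 in 833KE on feeders, and 3.56 to 3.75 in ES lines. The groups overlapped. Its mean was 3.84 ± 0.18 in EC on plastic, 3.62 ± 0.12 in EC on feeders and 3.61 ± 0.070 in ES, and limma called neither difference from ES (0.23 on plastic, adjusted p = 0.294; 0.0096 on feeders, 0.981).

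Among the 13 PYHIN1 probesets, probeset 2362366 differed from the rest of the gene. Its log2 levels were 11.05 in NCCIT, 9.53 in 2102Ep, 7.42 in 833KE, 7.99 in TERA1 and 8.10 in NTERA2 on plastic. They were 8.39 in NTERA2, 7.60 in 2102Ep and 6.09 in 833KE on feeders, and 4.61 to 6.13 in ES lines. On plastic every EC array was above every ES array, and on feeders 833KE lay within the ES range. Within each EC group the lines stood in the same order as for IFI16, and the ES lines stood in another order.

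limma called this probeset higher in EC on plastic by 3.49 (SE 0.55, adjusted p = 0.00601), 1 of 13 PYHIN1 probesets, where 2.81% of all probesets were called and 2.07% called as higher. On feeders, where 0.953% were called and 0.61% as higher, its level was 2.03 above ES (adjusted p = 0.0718). Over the 14 arrays its r with the IFI16 cluster was 0.97 and with the PYHIN1 cluster 0.50, while the other 12 PYHIN1 probesets had r of -0.37 to 0.46 with IFI16. Of these 12, 9 had a mean below the 25th percentile value of all probesets. These correlations are descriptions over arrays that share lines and fall into EC and ES. Because the probeset follows IFI16, whose difference chose the gene set, its call is not separate from that choice. Whether its probes take up RNA of the neighbouring IFI16 was not tested.

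**Figure D3:**
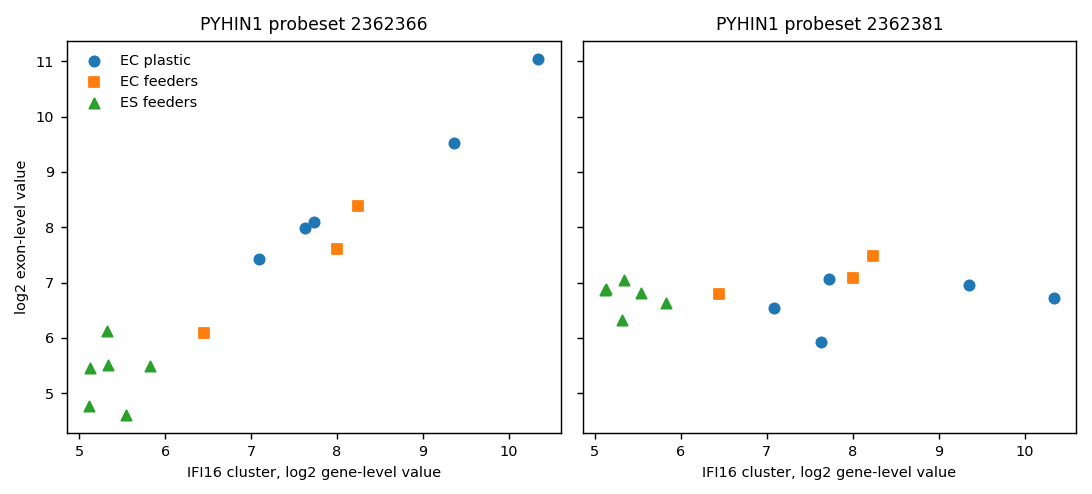
Log2 exon-level value of PYHIN1 probeset 2362366 (left panel) and of the brightest of the other PYHIN1 probesets, 2362381 (right panel), against the log2 gene-level value of IFI16, a point an array, by group. The left panel rises along a line (r = 0.97, n = 14 arrays) and the right panel does not (r = 0.14).

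Exon usage asks whether a probeset departs from the rest of its gene. The test, diffSplice of limma, took genes with at least 3 probesets whose mean passed the 25th percentile of all probesets in EC and in ES alike. IFI16 had 8 probesets in the test, IRF3 13, PYHIN1 4, STING1 8 and TBK1 20, and CGAS, AIM2 and MNDA were not in it. In EC on plastic against ES, 0.211% of 189288 probesets were called, and of the 53 member probesets only the same PYHIN1 probeset was, at 3.51 above the rest of its gene (adjusted p = 1.38e-05). As that probeset follows IFI16, this call too is not separate from the choice of the gene set. With only probesets above the median kept, PYHIN1 was no longer in the test. In EC on feeders against ES, where 0.0698% were called, it was 1.85 above the rest (adjusted p = 0.0590), and no member was called. The IFI16 probesets in the test departed from the rest of IFI16 by -0.66 to 0.77 on plastic, none called.

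STING1, the adaptor on which the sensor signals meet, had log2 levels of 5.65 in NCCIT, 5.78 in 2102Ep, 6.00 in 833KE, 5.66 in TERA1 and 5.59 in NTERA2 on plastic. It had 5.72 in NTERA2, 5.69 in 2102Ep and 5.78 in 833KE on feeders, and in ES lines the lowest, median and highest were 5.62, 5.73 and 5.95. The groups lay on top of each other. Means were 5.74 ± 0.16 in EC on plastic, 5.73 ± 0.046 in EC on feeders and 5.74 ± 0.12 in ES.

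STING1 differed from ES by 0.00078 on plastic (SE 0.12, limma adjusted p = 0.998) and by -0.0075 on feeders (SE 0.13, 0.986). Its SD over all 14 arrays was 0.12, against 1.68 for IFI16 and 1.76 for CGAS. The cluster lay between percentiles 38.1 and 46.5 of all clusters. None of its 11 probesets was called in any comparison, and their differences on plastic ran from -0.40 to 0.48.

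Every probeset of the nuclease TREX1 was annotated also to ATRIP, a partner of the ATR kinase, so its own level could not be read. The shared cluster had log2 levels of 6.34 in NCCIT, 6.65 in 2102Ep, 6.63 in 833KE, 6.47 in TERA1 and 6.32 in NTERA2 on plastic, 6.25 to 6.99 on feeders and 6.32 to 6.72 in ES lines. The groups overlapped. It differed from ES by -0.068 on plastic (limma adjusted p = 0.817) and 0.093 on feeders (0.849). Of the 33 shared probesets, 15 listed TREX1 before ATRIP and 18 after it, and none was called in any of the 3 comparisons (smallest adjusted p = 0.128).

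TBK1, the kinase that STING recruits, had log2 levels of 7.50 in NCCIT, 8.38 in 2102Ep, 7.69 in 833KE, 7.71 in TERA1 and 8.26 in NTERA2 on plastic. It had 7.44 in NTERA2, 7.64 in 2102Ep and 7.28 in 833KE on feeders, and in ES lines the lowest, median and highest were 6.92, 7.26 and 7.63. On plastic 2102Ep and NTERA2 were high and NCCIT lay within the ES range, and on feeders the EC lines overlapped the ES lines. Means were 7.91 ± 0.39 in EC on plastic, 7.45 ± 0.18 in EC on feeders and 7.26 ± 0.23 in ES.

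TBK1 was 0.65 above ES on plastic (SE 0.19), or 1.57-fold, with an unadjusted p of 0.00430 and a limma adjusted p of 0.0718, which missed the threshold. It passed without NCCIT (0.75, adjusted p = 0.0380) and with only the 3 EC lines that were also grown on feeders (0.85, adjusted p = 0.0422). Over its alternatives the adjusted p ran from 0.0380 to 0.222. On feeders the difference from ES was 0.19 (adjusted p = 0.628), and with array codes from 17 only it was -0.080.

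TBK1 was lower on feeders than on plastic in each of the 3 lines, with differences of -0.83 in NTERA2, -0.74 in 2102Ep and -0.41 in 833KE. The mean of -0.66 (SE 0.17) was not called by limma (adjusted p = 0.266), and 18.1% of all clusters were lower on feeders in every line. The 3 plastic arrays of this comparison are also in the comparison of EC on plastic with ES. Array codes moved with growth in NTERA2 and 2102Ep, and 833KE had codes from 17 in both conditions. The part of these codes in the TBK1 differences was not tested, and line and code cannot be told apart here.

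Nearly all of the 26 TBK1 probesets had differences of the same sign. In EC on plastic against ES 25 of 26 had a higher mean (median difference 0.67), and 2 were called by limma, where 2.81% of all probesets were called and 2.07% as higher, namely 3419853 at 1.03 (adjusted p = 0.0453) and 3419855 at 1.82 (adjusted p = 0.0482). For EC on feeders against ES 22 of 26 had a higher mean and none was called. In feeders against plastic 1 of 26 was higher on feeders (median -0.66) and none was called. Probesets of 1 gene measure the same RNA and are not replicates.

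**Figure D4:**
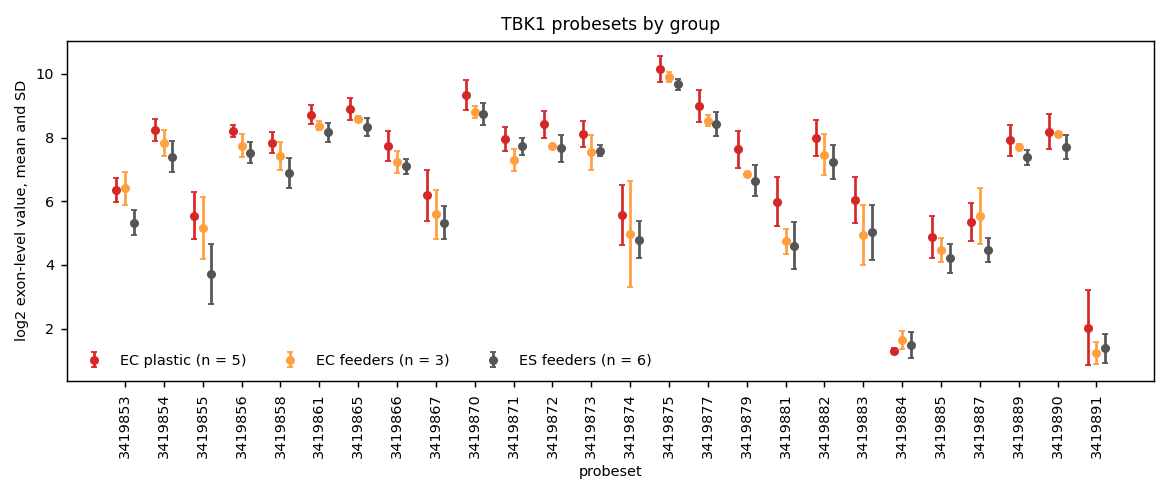
Mean and SD of the log2 exon-level value of each of the 26 TBK1 probesets in EC on plastic (n = 5), EC on feeders (n = 3) and ES on feeders (n = 6). EC on plastic has the higher mean against ES in 25 of 26 probesets and EC on feeders in 22 of 26.

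IRF3, the transcription factor at the end of the pathway, had log2 levels of 7.49 in NCCIT, 7.64 in 2102Ep, 7.40 in 833KE, 7.83 in TERA1 and 7.42 in NTERA2 on plastic. It had 7.64 in NTERA2, 8.34 in 2102Ep and 7.59 in 833KE on feeders, and in ES lines the lowest, median and highest were 7.32, 7.64 and 8.01. The groups overlapped, with 2102Ep on feeders the highest array. It differed from ES by -0.084 on plastic (limma adjusted p = 0.825) and 0.22 on feeders (0.677). On feeders it was above plastic in all 3 lines, by 0.22 in NTERA2, 0.70 in 2102Ep and 0.19 in 833KE (mean 0.37, limma adjusted p = 0.420). Of all clusters, 38.7% had 1 sign in every line, counting both directions, and 18.1% were lower on feeders in every line. None of its 13 probesets was called. The cluster it shares with BCL2L12 differed by -0.35 on plastic (adjusted p = 0.426) and 0.12 on feeders (0.855).

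Counted together, limma called 0 of the 6 tested members in EC on plastic against ES, where 4.6% of all clusters were called, 0 of 6 in EC on feeders against ES and 0 of 6 in EC on feeders against EC on plastic. At an unadjusted p below 0.05 there was 1 member in EC on plastic against ES and 1 in feeders against plastic, TBK1 both times, and 0 in EC on feeders against ES. Of all 22011 clusters, 4233 were below it on plastic against ES, 3276 in feeders against plastic and 3875 on feeders against ES.

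The wider pathway was read from 7 gene lists, and 3 of their 79 measured genes, or 3.8%, passed the test in EC on plastic against ES, where 4.6% of all clusters did. Among other DNA sensors and sensor cofactors (12 of 19 measured) 1 rose and none fell: LRRFIP1, a nucleic acid-binding protein, was 7.36 to 8.63 in EC on plastic and 6.42 to 7.27 in ES (difference 1.02, limma adjusted p = 0.0317). It was 7.65 to 8.27 on feeders (1.06 above ES, adjusted p = 0.0506), and was called there in 4 alternatives (adjusted p from 0.0357 to 0.0473). The call on plastic was lost when any 1 of 7 arrays was left out (adjusted p from 0.0506 to 0.0722). The median difference of the list was 0.091, against 0.0046 for all clusters.

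Among cytosolic RNA sensors (9 of 9 measured, with the endosomal receptor TLR3 in the list) 1 rose and none fell. TLR3, which binds double-stranded RNA, was 4.80 to 5.60 in EC on plastic, 3.96 to 6.21 in EC on feeders and 3.35 to 3.86 in ES. It was 1.43 above ES on plastic (adjusted p = 9.31e-04) and 1.15 on feeders (0.179), and is a dim cluster. With array codes from 17 only, which leaves 833KE on feeders, it was 2.48 above ES (0.0121). RIGI and IFIH1, the helicases that sense RNA, differed by 0.0056 and -0.045 on plastic, neither called, and the list's median was 0.0056.

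Among inflammasome genes (7 of 12 measured) none rose and 1 fell. CARD8, a sensor that can activate caspases, was 5.54 to 6.51 in EC on plastic, 5.38 to 6.33 in EC on feeders and 6.60 to 7.18 in ES. It fell by 0.99 in EC on plastic against ES (adjusted p = 0.0147). Its difference on feeders was -0.89 (0.0774), and was called there after quantile normalisation (0.0414) and median centring (0.0395). With array codes from 17 only the call on plastic was lost (0.0646). PYCARD, the adaptor that AIM2 uses, and IL1B differed by -0.23 and 0.0053 on plastic, neither called.

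In the other 4 lists no gene was called on plastic. Of 13 measured regulators of STING and cyclic dinucleotides, the smallest p-values were those of ENPP1, which degrades the cyclic dinucleotide (0.70, adjusted p = 0.204), and INSIG1 (0.61, 0.208), which was called without NCCIT (0.88, 0.0128) and with the 3 EC lines also grown on feeders (1.01, 0.0106). Of 11 kinases and factors downstream of STING, AZI2, an adaptor of TBK1, had a difference of 0.64 (0.0726), and was called without H9 (0.77, 0.0157). Of 7 nucleases and other limits on cytosolic DNA, ADAR had a difference of 0.29 (0.417) and RNASEH2B one of -0.28 (0.482). The medians of these 3 lists were -0.070, 0.013 and -0.040.

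Of 20 measured interferon and interferon-stimulated genes of 22, none was called and the median difference on plastic was 0.021. Their mean log2 level was 4.99 to 5.19 in EC on plastic, 5.16 to 5.29 in EC on feeders and 4.95 to 5.14 in ES. EC on feeders did not overlap ES in this level, which was not tested, and 16 of 20 genes had a positive difference there (median 0.15). IFIT3 was 0.56 above ES (adjusted p = 0.237) and IFIT1 was -0.58 from it (0.337). IFNB1, the interferon that IRF3 turns on, was at 2.35 to 2.76 in EC on plastic, 2.62 to 3.10 in EC on feeders and 2.53 to 2.72 in ES, a dim cluster in all groups. Against ES, EC on feeders had a called gene in none of the 7 lists, apart from the alternatives given for LRRFIP1, CARD8 and TLR3, and their medians ran from -0.10 to 0.29, against 0.042 for all clusters. In feeders against plastic none was called.

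**Figure D5:**
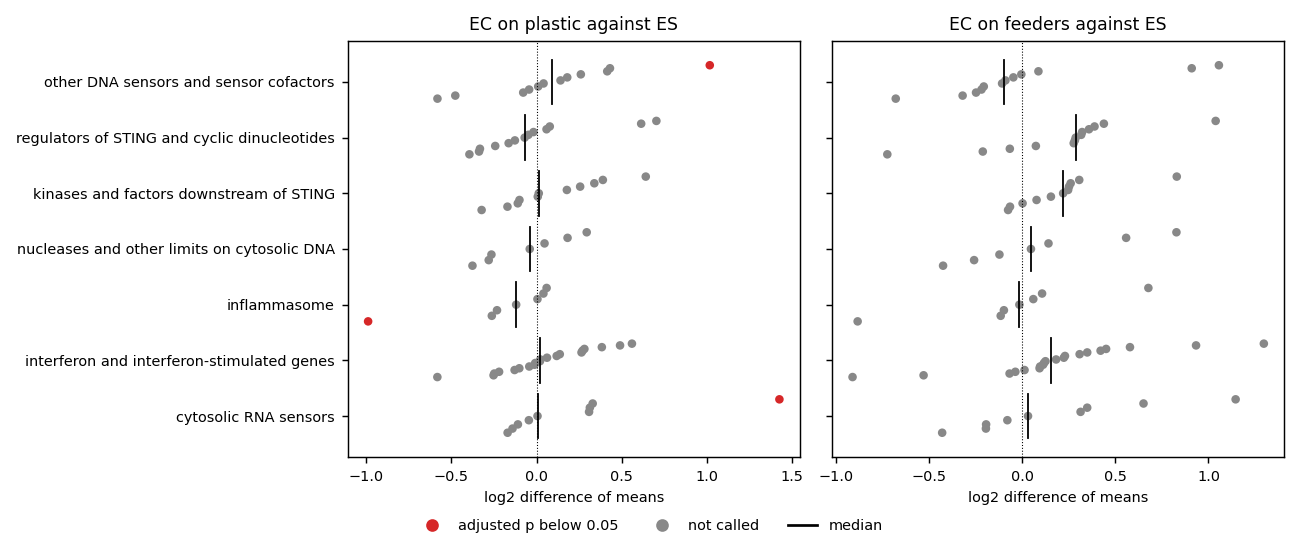
Difference of mean log2 levels for each measured gene of the 7 pathway lists, EC on plastic against ES (left panel) and EC on feeders against ES (right panel); red points were called by limma and black lines are list medians. LRRFIP1 (1.02), TLR3 (1.43) and CARD8 (-0.99) are called on plastic, and no point is red on feeders.

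Fibroblast markers were read as a sign of fibroblasts among the sorted cells. The feeders were mouse cells and the array carries human probes, so the markers are not a direct measure of feeder cells. The mean log2 level over 9 of 10 genes was 5.11 to 5.70 in EC on plastic, 5.68 to 6.02 in EC on feeders and 5.65 to 6.72 in ES. On plastic 1 fell, COL1A1 (difference -1.65, limma adjusted p = 0.0188), a call lost with the 3 EC lines also grown on feeders (0.0739), and the median difference was -0.73. For EC on feeders against ES none was called and the median was -0.45, with 2 of 9 positive; COL1A1 was called there with array code as a block (-1.41, 0.0379). The part of these markers in the member values was not tested.

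The genes beside IFI16 and CGAS were read for whether the difference was shared by neighbours. Within 3 measured genes on either side of IFI16 (OR6N2, MNDA, PYHIN1, AIM2, CADM3 and ACKR1) none was called, and the smallest p on plastic was that of CADM3 (-0.48, adjusted p = 0.2503), which was called without NTERA2 (-0.70, 0.0195). Around CGAS on chromosome 6, the next gene MTO1, a tRNA-modifying protein of mitochondria, was 0.67 higher in EC on plastic (adjusted p = 0.0353), a call lost in 12 alternatives. CD109 had a difference of 0.93 (0.0923, and 0.0403 without H9) and SLC17A5 one of 0.50 (0.135). LINC00472 differed by -0.74 (0.0595) and was called in 5 alternatives, with array code as a block at -1.01 (0.00705). KCNQ5 and RIMS1 differed by -0.010 and -0.21, neither called.

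The patterns most like the sensors over the 14 arrays were sought among 14219 genes. For IFI16 they were TRIT1 (r = 0.94), CCDC126 (0.93) and SMAP2 (0.93). For CGAS they were ABCG2 (0.97), GDF3 (0.97) and DDX47 (0.95). GDF3, a ligand of the TGF-beta family, averaged 11.2 ± 1.12 in EC on plastic, 11.2 ± 0.19 in EC on feeders and 7.73 ± 1.17 in ES, and ABCG2, a drug efflux pump, 8.66 ± 1.49, 9.30 ± 0.36 and 5.79 ± 0.68 in the same groups. For STING1, whose levels hardly varied, they were CXCL9 (0.88), OXT (0.85) and OR6M1 (0.84). The 14 arrays share lines and fall into EC and ES, and each r is among the highest of 14219 genes. An r of 0.88 was reached even for STING1, with an SD of 0.12.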

How the data were processed

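The 14 arrays were deposited as gene-level and exon-level tables of log2 values. Per the labels' protocols, total RNA was reduced of rRNA, amplified and labelled with biotin, and per the submitters' processing notes the values come from RMA and the Affymetrix Expression Console. Their settings, log base and annotation release are not given in the sources used here; the deposited values were taken as log2 from their range. No detection p-values were used, and precision is set by the number of arrays. Nothing was transformed or renormalised before the fits.

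Symbols came from the platform annotation (14432 clusters with 1 symbol, 2408 with several, 5171 with none). Differences were fitted by lmFit and moderated by eBayes (limma 3.58.1, R 4.3.3), with two-sided p-values adjusted by Benjamini-Hochberg over all features, each comparison on its own arrays, and feeders against plastic with the line as a block. The arrays pair through the shared line: feeder and plastic arrays of 1 line had deviations that correlated at 0.41 (2102Ep), 0.34 (833KE) and 0.51 (NTERA2). Deviations were taken from the mean of the 3 lines in each condition. This centring pushes the r of different lines below 0, where it was, so that sign is no separate evidence of pairing. Promoter windows and gene spans are from RefSeq (GRCh38.p14), aligned with Biopython 1.88; figures were drawn with matplotlib 3.10.9. Scripts were tested on simulated data.

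The members and gene lists were chosen with earlier results of these data known. For that reason IFI16 and CGAS are given with no p in any comparison, also in feeders against plastic, where a test had been planned. Of each list up to 4 called genes were named, or else the 2 with the smallest p; RIGI, IFIH1, PYCARD, IL1B, IFNB1, PTPRC, the called TBK1 probesets and CGAS probeset 2960883 were named after their values were seen. Neighbours were the 3 measured genes on either side, and likeness was Pearson's r. Alternatives were quantile normalisation, median centring, dim clusters left out, other estimates of the spread, each array left out, array codes, EC line choice, the block, exon filters and the median of the probesets.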

Additional observations from a re-analysis of the deposited data

Results flagged for a closer look

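Of 20 member groups of 5 or 6 arrays, 4 held an array that stood apart from the others by Dixon's test. Chance gives about 1 in 20. The groups of IFI16 and CGAS, chosen for their level, are among the 20, so the count cannot be read against chance. The groups come from the same arrays and are not separate from each other. CGAS in EC on plastic stood out because NCCIT, at 5.34, was far below the other 4 lines, which were between 7.43 and 8.11. These CGAS values are among those that chose the gene, so its flag is a description only. MNDA in EC on plastic stood out because NCCIT, at 2.20, was below the other lines at 2.66 to 2.79. MNDA in ES stood out because Shef5, at 2.33, was below the other ES lines at 2.59 to 2.74. PYHIN1 in ES stood out because Shef7, at 3.75, was above the other ES lines at 3.56 to 3.61. The MNDA and PYHIN1 values are of dim clusters.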

How the results depend on the processing

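The count of members called in EC on plastic against ES was 0, and 1, TBK1, with the 3 EC lines also grown on feeders. Leaving out 1 array at a time gave 0 to 1, with TBK1 called without NCCIT. In EC on feeders against ES and in feeders against plastic it was 0 under every alternative run. The exon usage count on plastic was 1, and 0 with probesets above the median, a filter that took PYHIN1 and IFI16 out of the test; leaving out arrays gave 1 throughout. On feeders it was 0, and 3 with no filter on low probesets, where 622 of all 260233 probesets were called. That setting put 111 member probesets in the test in place of 53, CGAS now among them, whose difference from ES chose the gene set. Leaving out arrays gave a count on feeders of 0 to 1, with 1 (the PYHIN1 probeset) without 833KE or without Shef7. The cause of the changes on leaving out arrays was not tested.

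The line block changed no member call: with no replicate block in feeders against plastic, 0 members were called, as with it. Counts over all clusters ranged from 527 (array codes from 17 only) to 1257 around 1012 on plastic, with 587 without Shef3 and 604 without 2102Ep, from 167 (without Shef3) to 662 around 504 on feeders, and from 0 to 62 in feeders against plastic. The difference from ES kept its sign in every alternative for IFI16 (1.05 to 3.58) and CGAS (2.71 to 3.93), over both EC groups. MNDA, PYHIN1, STING1, TBK1 and IRF3 changed sign against ES in some alternative on plastic or on feeders, and none of those values was called. Limits are the 3 to 6 arrays a group, dim PYHIN clusters, TREX1 read only with ATRIP, and array codes that split the feeder arrays.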
